A study of Mus musculus with 8 samples.

Results

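The genes described here are 10 long noncoding RNAs: Gas5, Snhg1, Snhg3, Snhg5, Snhg6, Snhg8, Snhg12 and Snhg15, which are spliced host genes of small nucleolar RNAs (snoRNAs), and Malat1 and Neat1, which stay in the nucleus. They were chosen by gene name from a table of 41018 genes, and all 10 were found. RNA of CD11b+ cells isolated with magnetic beads from femurs and tibiae of female C57BL/6 mice was sequenced in 4 samples from PC-EV-educated mice, which received extracellular vesicles of PAN02 cells, a mouse pancreatic cancer line, every other day over 3 weeks, and in 4 samples from mice given PBS in the same way. All 8 samples thus came from one strain, one sex and one bead isolation, and the labels name neither the animals behind a sample nor any pooling. The only level analysed here is the authors' Max group mean, the larger of the PC-EV-educated and PBS group means. It carries no spread between samples and does not say which group it belongs to, so no difference between PC-EV-educated and PBS mice was tested and none is described.

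A snoRNA host gene is transcribed and spliced like a messenger RNA, but its product of interest lies in the introns: most snoRNAs of mammals are trimmed out of spliced introns and then guide 2′-O-methylation (box C/D snoRNAs) or pseudouridylation (box H/ACA snoRNAs) of ribosomal RNA. The exons of several hosts encode no conserved protein, begin with a tract of pyrimidines like the messenger RNAs of ribosomal proteins (the terminal oligopyrimidine motif), and are degraded by nonsense-mediated decay once they meet ribosomes. Malat1 RNA gathers at nuclear speckles, where splicing factors are stored, and the long form of Neat1 is the scaffold of paraspeckles. Both RNAs are known to end in a genome-encoded A-rich tract that folds with U-rich tracts into a triple helix in place of a poly(A) tail.

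The sequences at the annotated starts are shown first because the pyrimidine tract is the feature that hosts are known for. RefSeq promoter windows (GRCm38.p6) were matched for 8 of the 10 genes, among them 7 of the 8 hosts. Each stretch below has 40 bases before the annotated start and 20 from the start onwards, and capitals mark the longest run of pyrimidines that begins within 2 bases of the start, where it has at least 4.
Gas5 start (chr1:161035126-161035185, plus strand): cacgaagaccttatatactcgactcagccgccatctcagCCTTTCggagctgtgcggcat
Snhg8 start (chr3:123508317-123508376, minus strand): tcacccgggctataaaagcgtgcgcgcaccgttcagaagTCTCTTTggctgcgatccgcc
Snhg12 start (chr4:132308638-132308697, plus strand): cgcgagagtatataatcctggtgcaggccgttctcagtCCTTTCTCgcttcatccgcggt
Snhg1 start (chr19:8723447-8723506, plus strand): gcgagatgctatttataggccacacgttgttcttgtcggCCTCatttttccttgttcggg
Snhg3 start (chr4:132353667-132353726, minus strand): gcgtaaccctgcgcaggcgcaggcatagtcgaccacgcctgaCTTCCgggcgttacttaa
Snhg15 start (chr11:6528741-6528800, minus strand): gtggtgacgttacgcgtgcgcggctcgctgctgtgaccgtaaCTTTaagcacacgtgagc
Snhg5 start (chr9:88522878-88522937, minus strand): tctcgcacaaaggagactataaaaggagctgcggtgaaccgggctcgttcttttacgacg

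In 6 of the 7 hosts with a window such a run was found, which is 85.7%, against 6468 of 27025 genes in the whole promoter table (23.9%) and 26 of 61 cytosolic ribosomal protein genes (42.6%). Runs of at least 6 pyrimidines stood in Gas5, Snhg8 and Snhg12, 3 of 7 hosts (42.9%), against 9.35% of all genes and 32.8% of ribosomal protein genes. The run of Snhg12 was the longest, with 8 pyrimidines, followed by 7 in Snhg8 and 6 in Gas5. In Gas5, Snhg1, Snhg8 and Snhg12 the run included the annotated start base. In Snhg3 and Snhg15 the run began 2 bases after a start base that was a purine, G and A. Snhg5 was the host without a run in this narrow window. When the run was allowed to begin within 10 bases of the start, all 7 hosts held one, but so did 64.4% of all genes. Of the ribosomal protein genes 47 of 61 did (77.0%), so the narrow window leaves out runs that begin farther from the annotated start. Gas5 has a second annotated start farther upstream, at position 161034601, and that window held no run, so that 6 of 8 host windows (75.0%) carried one when each start was counted, against 21.0% of all windows. Malat1, whose window was also matched, had none within 2 bases of its start.

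Other short motifs were searched in the full windows, from 250 bases before to 50 after each start, on both strands. The TATA box letters TATAAA were present in Snhg1, Snhg3, Snhg5 and Snhg8, 4 of 7 hosts (57.1%), against 15.7% of all genes and 9.84% of ribosomal protein genes. GGGCGG, the core that Sp1 proteins bind, was present in 5 of 7 hosts (71.4%), against 38.2% of all genes. CACGTG, the E-box bound by Myc, was present in 1 host, Snhg15 (14.3%), against 8.09% of all genes. CCAAT was present in 3 hosts (42.9%), against 41.1% of all genes, so that the hosts stood close to the whole table for this motif. These are matches of letters in a reference sequence, and none was measured as a bound site.

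Levels are given in RPKM, reads per kilobase of annotated exon per 1000000 reads, and reads per 1000000 without the length are written RPM. The values of low genes fell on 8 fixed steps, which put the depth of the 8 libraries between about 42200000 and 53500000 reads. From these depths each level was turned back into a range of reads, summed over the 4 samples of the group with the larger mean, and a 95% Poisson interval was set around it. These intervals, and the limits given below for genes at 0, cover counting error only, not the spread between mice, and the larger of a pair of means lies on average above either group's true level. The fraction carried the RNA of myeloid cells. All 8 neutrophil markers were between 178 (Cxcr2) and 42151 RPKM (S100a9), the 5 monocyte markers between 24.6 and 189 RPKM, and the 5 macrophage markers between 18.4 and 34.7 RPKM. The 4 granulocyte precursor markers were between 24.8 (Ctsg) and 226 RPKM (Elane). Medians were lower for B cells (1.17 RPKM), T cells (0.0806 RPKM), NK cells (0.805 RPKM), megakaryocytes (0.603 RPKM) and stroma (0.253 RPKM). Among the NK markers, however, Nkg7 was at 17.1 RPKM. The erythroid list had a median of 26.7 RPKM. How much each cell type contributed to the levels below was not tested, and in such bulk samples fewer cells of a type and less RNA per cell cannot be told apart.

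Malat1 and Neat1 were far above the hosts. Malat1 had a level of 501.5 RPKM (counting interval 500.3 to 502.8), from between 591618 and 749581 reads. It ranked 4th among 12340 long noncoding RNA genes, and 99.8% of the 28225 genes with a level above 0 were lower. The noncoding genes above it were Gm26917, Gm42418 and AL732506.1, named here after their values were seen. Neat1 had 90.5 RPKM (90.2 to 90.8), from 317517 to 402295 reads, and ranked 6th, behind Gm37194. Malat1 was thus 5.54-fold above Neat1 per kilobase. Because the exons of Neat1 span 20771 bases and those of Malat1 6983, the ratio was 1.86 when reads rather than reads per kilobase were compared: Malat1 had 3502 RPM and Neat1 1880 RPM.

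The 8 hosts summed to 35.9 RPKM, so that Malat1 alone was 14.0-fold and Neat1 2.52-fold above all hosts together. Snhg8, which carries the H/ACA snoRNA gene Snora24, was the highest host at 11.1 RPKM (10.5 to 11.6, 1597 to 2024 reads). Gas5, the host first found in growth-arrested cells and the one with most snoRNA genes, followed at 9.24 RPKM (9.01 to 9.48, 5872 to 7440 reads). Snhg5, host of Snord50a and Snord50b, had 6.23 RPKM (5.95 to 6.52), and Snhg1, host of Snord22, had 3.60 RPKM (3.43 to 3.77). Between Snhg8 and Snhg1 no counting interval overlapped that of its neighbour.

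The other hosts were near or below 2 RPKM. Snhg12, with 5 snoRNA genes, had 1.90 RPKM (1.76 to 2.04, 751 to 952 reads). Snhg6, host of Snord87, had 1.85 RPKM (1.66 to 2.05, 358 to 453 reads), and these intervals overlapped almost fully, so that the order of Snhg12 and Snhg6 was not resolved even by counting error. Snhg3, host of Snora73a and Snora73b, had 1.38 RPKM (1.20 to 1.57, 229 to 290 reads). Snhg15, host of Snora9, was the lowest at 0.630 RPKM (0.531 to 0.741, 145 to 183 reads), 17.6-fold below Snhg8. The spread between samples, which could reorder any of these neighbours, is not known for any member.

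**Figure D1:**
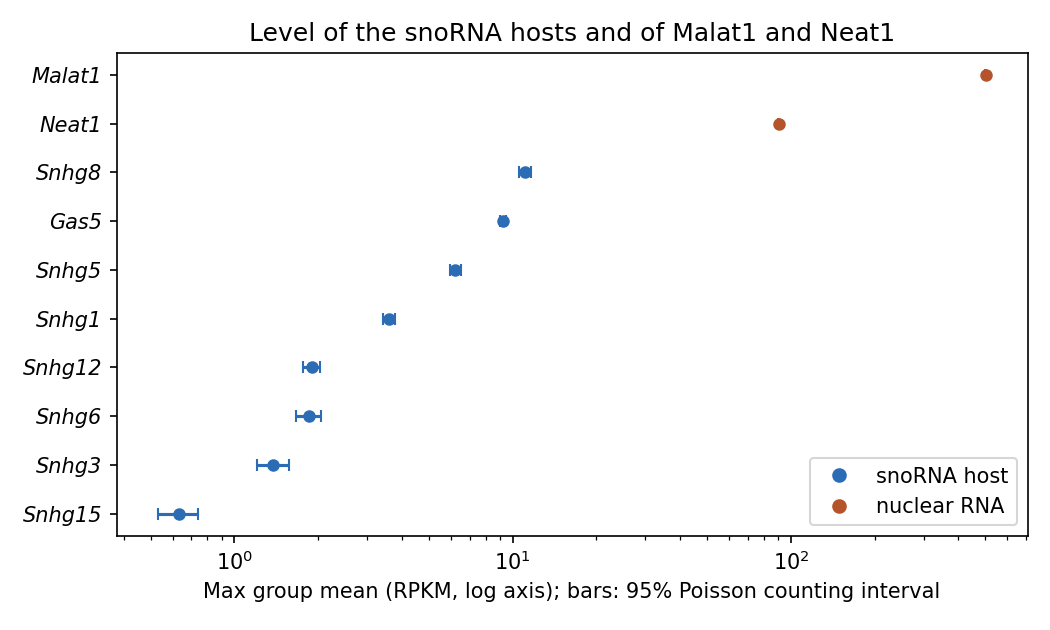
Level of each gene as the authors' Max group mean in RPKM on a log axis, with 95% Poisson counting intervals as bars, for the 8 snoRNA hosts (blue) and for Malat1 and Neat1 (brown). Malat1 and Neat1 lie to the right of every host, at 501.5 and 90.5 RPKM, and the bars of Snhg12 and Snhg6 cover each other.

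Against other long noncoding RNA genes these levels were high. A level of at least 1 RPKM was reached by 9 of the 10 genes, Snhg15 being the exception, against 447 of 12340 long noncoding RNA genes in the table (3.62%) and 8638 of 21857 protein-coding genes (39.5%). The hosts ranked 43rd (Snhg8), 55th (Gas5), 71st (Snhg5), 125th (Snhg1), 240th (Snhg12), 248th (Snhg6), 333rd (Snhg3) and 702nd (Snhg15) among the long noncoding RNA genes. Among all genes above 0 the share lying lower was 90.2% for Snhg8 and 63.7% for Snhg15. The median of the 8 hosts was 2.75 RPKM, and Malat1 and Neat1 together had 5382 RPM, against 74.5 RPM for the 8 hosts together.

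**Figure D2:**
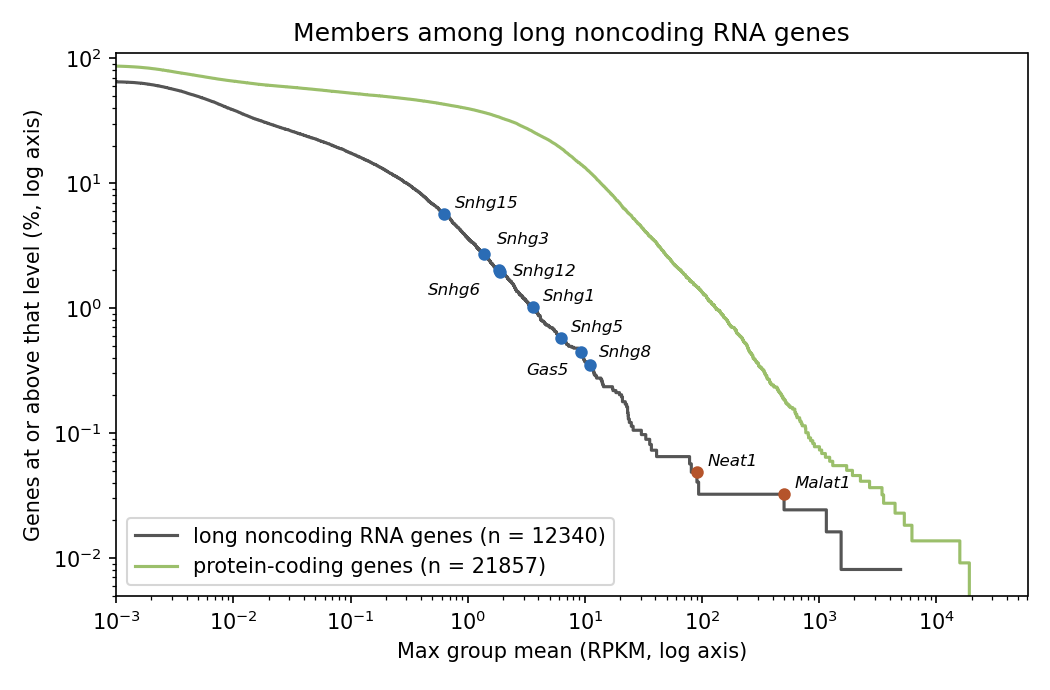
Percentage of genes (log axis) at or above each Max group mean in RPKM (log axis), for 12340 long noncoding RNA genes (dark line) and 21857 protein-coding genes (green line); points mark the hosts (blue) and Malat1 and Neat1 (brown) on the noncoding line. All members but Snhg15 lie in the 3.62% of noncoding genes that reached 1 RPKM.

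The length by which a host is divided weighs heavily on its level, because many annotated transcripts of hosts keep their introns. Of 25 annotated Gas5 transcripts, 20 retain an intron, and the summed exons cover 3760 of the 4118 bases of the locus (chr1:161034422-161038539), although the longest transcript without a retained intron has 665 bases. Divided by that transcript instead, the Gas5 level was 52.3 RPKM. Snhg1 has 18 transcripts of which 14 retain an intron, and its exons cover the whole locus (chr19:8723475-8726443). Its level on the longest transcript without a retained intron, 709 bases, was 15.1 RPKM. On this length Gas5 was the highest host, followed in RPKM by Snhg8 (17.9), Snhg1 (15.1), Snhg5 (10.7), Snhg12 (2.89), Snhg6 (2.59), Snhg3 (2.33) and Snhg15 (1.27). Without division by length Gas5 was also first, with 34.8 RPM, followed by Snhg5 with 10.8 RPM, Snhg1 with 10.7 RPM and Snhg8 with 9.46 RPM. Whether the Gas5 and Snhg1 reads fell on spliced exons or on introns cannot be told from a level per gene. The rescaled values assign every read of the gene to a transcript shorter than the exons on which reads were counted, so they are upper values for that transcript.

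**Figure D3:**
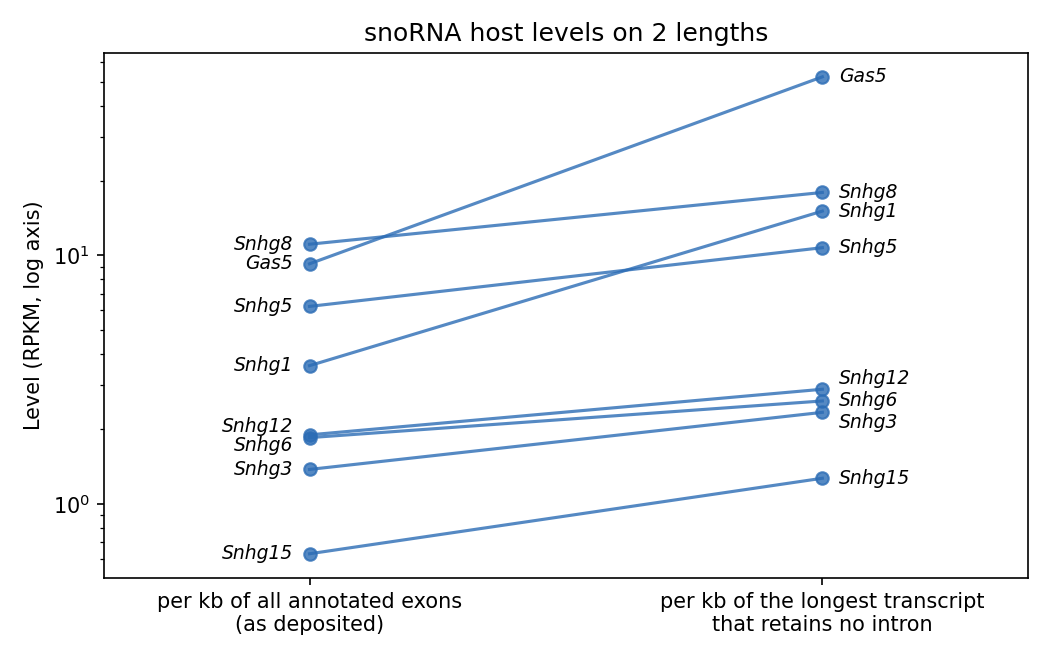
Level of each snoRNA host in RPKM (log axis) on all annotated exons as deposited (left) and on the longest annotated transcript that retains no intron (right). Gas5 crosses Snhg8 and Snhg1 crosses Snhg5 between the lengths, while Snhg12, Snhg6, Snhg3 and Snhg15 keep their places.

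The snoRNA genes inside the hosts were mostly listed at 0. On the strand of their host, 30 snoRNA genes lie within the 8 hosts: 10 in Gas5, 8 in Snhg1, 5 in Snhg12, 2 each in Snhg3 and Snhg5, and 1 each in Snhg6, Snhg8 and Snhg15. A level above 0 was listed for 9 of the 30, against 187 of all 1507 snoRNA genes in the table (12.4%), and only 3 of the 9 were above their host. By length, 2 of 21 host snoRNA genes under 100 bases were above 0, against 32 of 458 in the whole table (6.99%), and 7 of 9 with 100 bases or more, against 155 of 1049 (14.8%). Of the 30 genes, 27 lie wholly inside the annotated exons of their host, and 6 of these 27 were above 0. All 3 genes not wholly inside host exons were above 0. A read within a wholly exonic gene belongs to both annotations, and no source used here says to which gene it was counted. The 30 genes lie at 28 separate positions, since Snord80_1 overlaps Snord80_2 and Snora16a_1 overlaps Snora16a_2.

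Snora73a and Snora73b, inside Snhg3, stood apart. They are box H/ACA RNAs of the U17 family, which take part in cutting the ribosomal RNA precursor rather than in modifying it. Snora73a had 38.4 RPKM (1330 to 1685 reads) and Snora73b 32.0 RPKM (1107 to 1402 reads), 27.9-fold and 23.2-fold above the 1.38 RPKM of Snhg3. They are printed because their likeness limits these values: 198 of 205 bases are the same (96.6%), and capitals mark the 7 that differ.
Snora73a (chr4:132352775-132352979, minus strand): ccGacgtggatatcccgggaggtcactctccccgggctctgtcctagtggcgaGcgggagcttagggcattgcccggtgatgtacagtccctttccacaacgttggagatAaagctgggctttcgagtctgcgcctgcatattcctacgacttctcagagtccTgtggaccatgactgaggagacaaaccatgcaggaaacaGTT
Snora73b (chr4:132352322-132352526, minus strand): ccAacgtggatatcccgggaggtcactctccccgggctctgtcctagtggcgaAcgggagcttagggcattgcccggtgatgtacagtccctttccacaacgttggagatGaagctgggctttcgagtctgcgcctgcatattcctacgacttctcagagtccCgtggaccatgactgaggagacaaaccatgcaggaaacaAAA

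A read that holds none of the 7 differing bases fits both genes, so the split between Snora73a and Snora73b is uncertain. Neither lies wholly in the exons of Snhg3: Snora73b shares none, and 77.6% of Snora73a falls in an annotated Snhg3 exon. Both also lie within Rcc1, a chromatin-bound exchange factor of the GTPase Ran, on the same strand. Rcc1 had 3.66 RPKM, its locus covers 5592 bases of the Snhg3 locus, and 135 exon bases are shared by the pair, where reads of Snhg3 and Rcc1 cannot be told apart.

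Of the other nested genes only Snora9 was above its host, with 0.875 RPKM (20 to 25 reads), against 0.630 RPKM for Snhg15, a ratio of 1.39. In Gas5, 1 of 10 snoRNA genes was above 0. This gene, Gm22357, had 3.30 RPKM (46 to 59 reads), 0.357 of the Gas5 level, and it is shown with its box C (TGATGA) and box D (CTGA) in capitals, the short motifs bound by the methylation complex.
Gm22357 (chr1:161036057-161036139, plus strand): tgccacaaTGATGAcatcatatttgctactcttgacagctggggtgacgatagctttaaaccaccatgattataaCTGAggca

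The 9 other snoRNA genes of Gas5 were listed at 0, which at 3 reads allows up to 0.211 to 0.296 RPKM depending on their length. These genes and those given a limit below lie wholly in host exons. Each limit therefore covers only reads counted to the snoRNA gene, not reads counted to the host. Snord22 in Snhg1 had 1.74 RPKM (37 to 47 reads), 0.484 of its host, and the other 7 of Snhg1 were at 0, which allows 0.234 to 0.273 RPKM. In Snhg12, Snora61 had 0.735 RPKM and Snora16a_1 0.162 RPKM, from only 4 to 5 reads. Snora16a_2, which lies wholly within Snora16a_1, was at 0. Snord87 in Snhg6 had 0.215 RPKM from 3 to 4 reads. Snora24 was at 0 inside Snhg8, the highest host, with a limit of 0.137 RPKM. Snord50a and Snord50b were at 0 inside Snhg5, with a limit of 0.247 RPKM. The order of the hosts was thus not the order of the levels listed for their snoRNA genes. The highest nested levels belonged to Snhg3, the seventh of the 8 hosts. Neither snoRNA gene of Snhg3 lies wholly in host exons, whereas those of Gas5, Snhg5 and Snhg8 all do. What this difference does to the order was not tested.

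**Figure D4:**
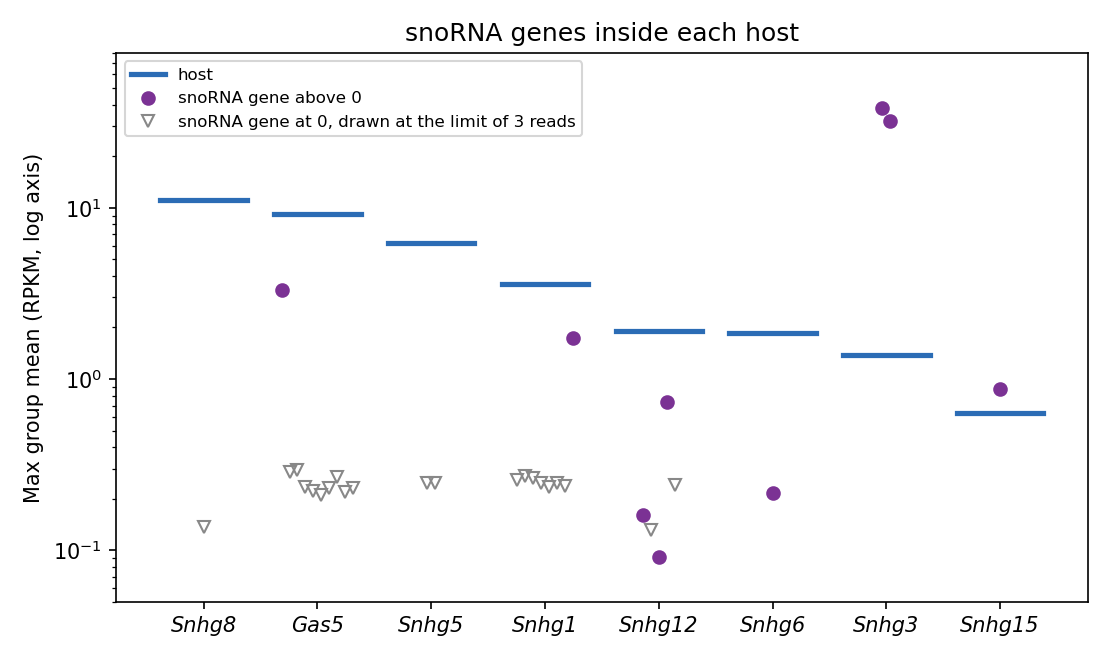
Max group mean in RPKM (log axis) of each host (blue line) and of the snoRNA genes inside it on the same strand (purple points; open triangles are genes at 0, drawn at the level that 3 reads would give). The points of Snora73a and Snora73b lie at 38.4 and 32.0 RPKM, above the Snhg3 line at 1.38 RPKM, and 21 of 30 genes are triangles.

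Malat1 and Neat1 share a feature at their far end, shown here since it sets them apart from the hosts in how the RNA ends. Capitals mark a U-rich stretch, TTTTGCTTTT, and an A-rich stretch, AAAAAGCAAAA, both written as DNA.
Malat1 (chr19:5795982-5796047, minus strand): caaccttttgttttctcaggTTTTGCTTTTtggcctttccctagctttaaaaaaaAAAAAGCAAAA
Neat1 (chr19:5824708-5824780, minus strand): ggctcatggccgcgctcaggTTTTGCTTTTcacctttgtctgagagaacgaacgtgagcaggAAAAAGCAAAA

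In Malat1 25 bases separate the marked stretches, and the last of these bases are A and run on into the marked A-rich stretch. That stretch ends 292 bases before the annotated end of the transcript. In Neat1 32 bases separate the marked stretches, and the A-rich one is the end of the annotated 20771-base transcript. Malat1 and Neat1 were the only long noncoding RNA genes, of 12340 with a transcript sequence, to hold the U-rich stretch followed within 60 bases by the end of the A-rich one (0.0162%). The U-rich stretch alone was present in 188 (1.52%). The motifs were taken from Neat1 after its sequence was seen. Small RNA genes annotated within Malat1 (1) and Neat1 (3) were all at 0. The antisense gene Gm37376 inside Malat1 had 1.72 RPKM, and the use of strand in counting is not given, so its reads and those of Malat1 may not be separable. Neat1 also has a short annotated form of 3004 bases, and a level per gene does not split the forms.

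Antisense overlaps also touched other members. Zbtb37 lies antisense across 428 bases at the start of Gas5 and shares no exon base with it (1.23 RPKM), and Mcmdc2 lies antisense across 127 exon bases at the end of Snhg6 (0.119 RPKM). The lincRNA Gm17300, antisense within Snhg3, had 0.0569 RPKM. It shares 705 exon bases with Snhg3, whose exons sum to 986 bases. Since the use of strand in counting is not given, reads there may not be separable.

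The genes of proteins that build snoRNA particles had levels like those of the hosts. Of box C/D proteins, 3 of 5 reached 1 RPKM, with a median of 2.59 RPKM, and the highest were Snu13, which binds the k-turn of the RNA (7.54 RPKM), Nop56 (5.01 RPKM) and the methyltransferase Fbl (2.59 RPKM). Of box H/ACA proteins, 4 of 6 reached 1 RPKM, with a median of 1.50 RPKM. They included Nop10 (5.07 RPKM), Nhp2 (4.87 RPKM), the pseudouridine synthase Dkc1 (1.75 RPKM) and Gar1 (1.25 RPKM). Assembly factors were similar, with 6 of 9 at or above 1 RPKM and a median of 2.74 RPKM, led by Pih1d1 (8.15 RPKM) and Ruvbl2 (7.07 RPKM). The hosts, with 7 of 8 at or above 1 RPKM and a median of 2.75 RPKM, lay in the same range as these lists.

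The lists for nonsense-mediated decay and for control of pyrimidine-tract messenger RNAs had higher medians. All 12 nonsense-mediated decay genes reached 1 RPKM, with a median of 7.26 RPKM, and the helicase Upf1 was the highest (18.4 RPKM), and Smg9 (11.6 RPKM) and Upf2 (10.7 RPKM) were also above 10 RPKM. All 8 genes listed for control of pyrimidine-tract messenger RNAs reached 1 RPKM, with a median of 6.15 RPKM. Eif4ebp2, a repressor of cap-dependent translation, was at 36.4 RPKM and Larp1, which binds the cap and the tract, at 13.8 RPKM. The 80 cytosolic ribosomal protein genes had a median of 60.2 RPKM, and 77 of them reached 1 RPKM. Of the 61 with a promoter window, 26 held a pyrimidine run of at least 4 bases that began within 2 bases of the start (42.6%). The highest host on the deposited length, Snhg8, had 11.1 RPKM.

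The protein partners of Malat1 and Neat1 were all present. All 10 paraspeckle protein genes were at or above 3.30 RPKM, with a median of 7.04 RPKM. Hnrnpk had 42.1 RPKM, and the core proteins Sfpq and Nono had 37.5 and 24.3 RPKM, so that Neat1 at 90.5 RPKM lay above each of them. All 8 nuclear speckle protein genes were at or above 6.72 RPKM, with a median of 23.9 RPKM, and Srsf2 (44.2 RPKM), Srrm2 (41.9 RPKM) and Son (39.1 RPKM) were the highest. Malat1 was above each of them too. The median over all genes above 0 was 0.102 RPKM, and over protein-coding genes above 0 it was 0.568 RPKM.

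Other noncoding hosts and nuclear RNAs were mostly lower than the members. Among 12 other snoRNA hosts, 3 reached 1 RPKM: Zfas1 (2.81 RPKM), Epb41l4aos (2.60 RPKM) and Snhg20 (2.46 RPKM), and the median was 0.381 RPKM. Nearness in level was searched among the genes of the other-host and nuclear noncoding lists only. Within them Zfas1 was the nearest to Snhg1 (log2 difference 0.36), Snhg20 was the nearest to Snhg12 (-0.37), Snhg6 (-0.41) and Snhg3 (-0.84), and Snhg9 (0.561 RPKM) was the nearest to Snhg15 (0.17). Of 9 other nuclear noncoding RNAs 3 reached 1 RPKM: Xist, which coats the inactive X chromosome (24.9 RPKM), Tug1 (12.4 RPKM) and Mirt1 (11.7 RPKM). Mirt1 was the nearest in level to Snhg8 (-0.07), Gas5 (-0.34) and Snhg5 (-0.91). Of the noncoding genes in these lists the nearest to Malat1 and Neat1 was Xist, with log2 differences of 4.33 and 1.86. Miat was listed at 0. Nearness in level over a single pooled value says nothing of how these genes vary across samples.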

How the data were processed

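RNA of 4 PC-EV-educated and 4 PBS samples was sequenced by the authors from stranded libraries depleted of ribosomal RNA. The submitters' processing notes name edgeR and the build GRCm38. No source used here names the aligner, the annotation release or the rule for reads in overlapping genes. The table deposited by the authors gives each gene's position, a Max group mean and their comparison of the groups (log2 fold change, fold change, p-value, false discovery rate and Bonferroni p-value). The comparison columns hold the study's own findings and were not used, and a second table of differentially expressed genes was not used for the same reason. No single-sample values were at hand, and the planned test between groups was therefore not run.

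The deposited Max group mean was taken as RPKM computed by the authors, from its values. Multiplied by the summed exon length of each gene (40934 of 41018 IDs matched GENCODE vM21), 95.8% of the 4464 values under 2 reads fell on 8 steps (tolerance 1e-05). The steps were read as the worth of 1 read in each of 8 libraries in a mean over 4 samples, which gives depths of about 42200000 to 53500000 reads. On simulated libraries of 28169 genes the method recovered 8 of 8 depths. A level's reads are given between its values at the largest and the smallest step, and exact Poisson 95% intervals were set at the lower number. The start of Snhg12 in the table differs from that in GENCODE vM21, and its length was limited to the table's span of 2347 bases. Positions are those of the table (GRCm38). Promoters are RefSeq windows of GRCm38.p6, and transcript and snoRNA sequences are from GENCODE vM21.

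The 10 genes, the gene lists and the rule for named genes (all members, the 2 highest nested small RNA genes per host, up to 4 of the highest genes per list, and the nearest genes in level from the noncoding lists) were chosen with earlier results of these data known. Some genes that the rule names are left out of the text. Alternatives were other length scalings, backgrounds, pseudocounts, motif windows and strands. Python 3.11.15, pandas 2.3.3, numpy 2.4.6, scipy 1.17.1 and matplotlib 3.10.9 were used.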

Additional observations from a re-analysis of the deposited data

How the results depend on the processing

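Malat1 and Neat1 held places 1 and 2, and Snhg12, Snhg6, Snhg3 and Snhg15 places 7 to 10, under each of the 3 scalings of length. For Malat1 and Neat1 the longest transcript is as long as the summed exons (6983 and 20771 bases). Rescaling to it could therefore not change their levels. Their order on shorter annotated forms, such as the Neat1 form of 3004 bases, was not tested. Of the 10 genes, 6 kept their place when levels were multiplied by exon length and 6 when they were rescaled to the longest transcript without a retained intron, an alternative chosen after seeing the data. The median percentile of the 10 members was 82.0 among genes above 0, 87.6 among all genes of the table, 64.2 among genes of at least 0.1 RPKM and 45.1 among genes of at least 1 RPKM, since fewer low genes remain below them. Their median log2(level + pseudocount) was 2.27 with a pseudocount of 0.1, 2.53 with 1 and 2.25 with 0.01. The share of the 8 members with a promoter window that held a start-site pyrimidine run was 75.0%, and it was 37.5% for runs of at least 6, 100% for runs beginning within 10 bases and 66.7% with every start window counted, also chosen after seeing the data. The 3 small RNA genes above the gene around them were 2 at a level of at least 1 RPKM. Counting either strand could not change the 3, since all nested small RNA genes lie on the strand of the gene around them. No paired analysis was possible because no single-sample values were at hand, and for the same reason no replicate was left out in turn. The widest counting interval relative to its level was that of Snhg15 (0.531 to 0.741 RPKM, at least 145 reads), and a snoRNA gene at 0 is not shown to be absent.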
